A study of Mus musculus with 4 samples.

Results

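The genes described here are the 10 genes of MHC class II antigen presentation measured in mouse peritoneal cells: Cd74, H2-Aa, H2-Ab1, H2-Eb1, H2-DMa, H2-DMb1, H2-DMb2, H2-Oa, H2-Ob and Ciita. They were chosen by gene symbol, and all 10 were found among the 31253 genes of the matrix. Viable F4/80+ cells (F4/80 is the macrophage surface protein encoded by Adgre1) were sorted from peritoneal washes and sequenced with a 10x Genomics 3′ kit, which tags each captured transcript with a molecular identifier (UMI). The study holds 4 samples, 1 per group, all labelled 24 weeks old. Apoe-/- mice, which lack apolipoprotein E and are prone to atherosclerosis, ate a high-fat diet with 0.15% cholesterol and 21% fat from 4 weeks of age for 20 weeks, went back to a normal diet, and were then injected into the peritoneum with 3 mg of the antibody anti-CVI-mAb in 200 µL, or with 200 µL of PBS alone. Apoe-/- mice and C57 wild-type mice on a normal diet, both given PBS, were the controls. Male sex is stated for the mice fed the high-fat diet, and the sources used here do not give the number of mice per sample. All samples share the sort for F4/80, and the labels call the cells macrophages.

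The barcodes carry the suffixes 1 to 4, taken here as 4 libraries. No label ties a suffix to a sample, so nothing below is a comparison of genotype, diet or antibody. Each library's value is given on its own, and cell sets are compared within a library. With no replicate of any group there is no test, and the intervals given (95%, exact) cover counting error only.

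Class II molecules display peptides from ingested material to CD4 T cells. The α and β chains, encoded by H2-Aa and H2-Ab1 (I-A) and by H2-Eb1 (the β chain of I-E), assemble with the invariant chain encoded by Cd74, which blocks the groove until it is degraded in endosomes. H2-DM, formed by the products of H2-DMa with H2-DMb1 or H2-DMb2, removes the last invariant chain fragment and edits the peptide, and H2-O, encoded by H2-Oa and H2-Ob, restrains H2-DM. Ciita encodes the co-activator that switches these genes on at a shared promoter element, and is known as the limiting factor for their transcription. In the peritoneal cavity, B cells express class II constitutively, large resident macrophages express little, and small macrophages of monocyte origin express more.

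The 8 H2 genes lie together in the MHC on chromosome 17 between 34092340 and 34316674 (mm10, that is GRCm38, with GENCODE M21 genes). Ciita lies on chromosome 16, from 10480059 to 10528418, on the plus strand. Because Ciita is known to act on class II genes through a shared promoter element, the stretches that hold letters of that element are shown. They come from RefSeq promoter windows (GRCm38.p6, 250 bases before to 50 after the start), searched for 7 of the 10 members. Cd74 was left out of the search, and H2-Ab1 and Ciita had no window under their symbol. Each stretch runs 5′ to 3′ on the gene's own strand, and capitals mark GATTGG, which holds the Y-box core ATTGG bound by the NF-Y factor, and GCAAC, letters of the X box bound by the RFX factors.
H2-Aa, chr17:34287857-34287932, minus strand: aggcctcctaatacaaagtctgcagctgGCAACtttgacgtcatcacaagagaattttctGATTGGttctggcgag
H2-Eb1, chr17:34305747-34305822, plus strand: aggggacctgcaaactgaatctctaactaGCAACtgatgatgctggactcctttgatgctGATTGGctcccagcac
H2-Oa, chr17:34092275-34092350, plus strand: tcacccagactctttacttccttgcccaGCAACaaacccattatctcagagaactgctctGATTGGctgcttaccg
H2-Ob, chr17:34238787-34238862, plus strand: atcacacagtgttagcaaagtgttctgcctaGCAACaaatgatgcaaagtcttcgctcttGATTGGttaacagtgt
H2-DMb1, chr17:34153069-34153144, plus strand: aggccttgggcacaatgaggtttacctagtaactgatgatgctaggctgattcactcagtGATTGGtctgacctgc
H2-DMb2, chr17:34145098-34145173, plus strand: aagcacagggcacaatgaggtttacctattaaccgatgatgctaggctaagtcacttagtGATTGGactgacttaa

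In H2-Aa, H2-Eb1, H2-Oa and H2-Ob the GCAAC preceded the GATTGG by 24 to 27 bases. Of 32851 promoter windows of this length, 16.1% held GATTGG on either strand, 35.2% held GCAAC on either strand, and 0.508% held GCAAC followed on the same strand, 15 to 45 bases on, by GATTGG. The stretches of H2-DMb1 and H2-DMb2 held GATTGG and no GCAAC, and 63 of their 76 bases were identical (82.9%), although the levels of these neighbouring genes differed by cell type, as given below. H2-DMa had 2 windows and neither held the pair. Only the exact letters were searched, so a stretch without GCAAC is not read as lacking an X box. A match of letters is a description and not evidence of binding.

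Of 26811 barcodes, 20864 passed the filters (500 or more genes detected, 10% or less of the UMIs mitochondrial), with median depths of 8195 to 13306 UMIs per library. Library 1 stood apart, with 42.3% of its barcodes removed, against 10.97 to 19.3% in the others. Of all barcode sequences, 52 occurred under 2 suffixes, 11 of them with both barcodes among the macrophages. Macrophages were barcodes with at least 2 Adgre1 UMIs and no UMI of Cd79a or Cd3e, and numbered 1538, 4218, 4334 and 5017 in libraries 1 to 4. B cells, with at least 3 UMIs of Cd79a (a chain of the B cell receptor complex) and none of Adgre1, numbered 586, 576, 311 and 281. Without Adgre1 and Cd79a, which define the sets, the 6 other macrophage markers summed to 919 to 1580 CPM (a gene's UMIs scaled to a library set total of 1e6) in B cells, against 38859 to 64759 CPM in macrophages, and the 7 other B cell markers to 4992 to 6176 CPM in B cells, against 3.50 to 60.8 CPM in macrophages, the highest value in library 1. The B cells had passed a sort for F4/80 while holding no Adgre1 UMI.

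In B cells the 10 genes together took a similar share of all transcripts in every library, and in macrophages the share varied widely. Their summed level was 19797, 20978, 21732 and 20495 CPM in B cells of libraries 1 to 4, against 7816, 14279, 3021 and 6051 CPM in macrophages. The highest library stood 1.10 times above the lowest in B cells and 4.73 times above it in macrophages. B cells were higher in each library, by log2 ratios of 1.34, 0.55, 2.85 and 1.76, with the smallest gap in library 2. T cells (at least 2 Cd3e UMIs, 52 to 79 per library), which should lack class II transcripts in the mouse, held 354, 1221, 143 and 237 CPM, which serves as the background that free RNA can give.

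Cd74 (chromosome 18, 60803848 to 60812652, plus strand), the invariant chain, was the most abundant member in B cells and in every macrophage set, as counted in UMIs, which are 1 per captured transcript and so are not divided by gene length. It had 10691, 10966, 11748 and 10816 CPM in B cells, against 3591, 6737, 1465 and 2903 CPM in macrophages. H2-Aa had 3254, 3489, 3453 and 3414 CPM in B cells, against 1549, 2966, 528 and 1133 CPM in macrophages. The B cell values lay in a narrow band, and the macrophages of library 2 came closest to it while those of library 3 lay far under it.

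H2-Ab1 gave 2278, 2432, 2374 and 2369 CPM in B cells and 1369, 2480, 499 and 1033 CPM in macrophages. In library 2 its levels in B cells and macrophages were nearly equal, at a log2 ratio of -0.03. H2-Eb1 gave 2201, 2814, 2810 and 2527 CPM in B cells and 862, 1440, 301 and 646 CPM in macrophages, and was higher in B cells in all 4 libraries. H2-Eb1 took more of the 3 chain transcripts in B cells: it made up 28.5 to 32.5% of the UMIs of H2-Aa, H2-Ab1 and H2-Eb1 there, against 20.9 to 23.0% in macrophages. H2-Ea-ps, the gene of the I-E α chain, is annotated as a polymorphic pseudogene and was not in the matrix. No level of I-E protein is therefore read from H2-Eb1 transcripts.

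The H2-DM genes split by cell type. H2-DMa, the α chain, was at 328, 373, 419 and 377 CPM in B cells, against 266, 398, 151 and 222 CPM in macrophages, so B cells were higher in libraries 1, 3 and 4 and slightly lower in library 2. Of the β chains, H2-DMb1 was at 58.8, 57.3, 55.1 and 48.2 CPM in B cells, against 125, 203, 66.0 and 94.1 CPM in macrophages. H2-DMb2 was at 466, 410, 394 and 477 CPM in B cells, against 12.2, 4.53, 2.19 and 2.34 CPM in macrophages. B cells carried mostly the DMβ2 transcript and macrophages mostly the DMβ1 transcript: H2-DMb2 made up 88.8, 87.7, 87.7 and 90.8% of the UMIs of both β genes in B cells, against 8.91, 2.18, 3.22 and 2.43% in macrophages.

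The β genes are close copies, so reads could in part be shared between them. Of the 451 stretches of 50 bases in the last 500 bases of the longest H2-DMb1 coding transcript, 92 (20.4%) also occurred in an H2-DMb2 transcript, and none of those at the end of the longest H2-DMb2 transcript occurred in H2-DMb1. The sources used here do not say how the authors' counting treated reads that match both genes.

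With H2-DMb2, the H2-O genes had the highest ratios of B cells over all macrophages in every library. In the few Cd209a cells described below, H2-Oa stood above the B cell level in library 2, on 26 UMIs from 8 cells. In library 1 the counting intervals of H2-Oa in Cd209a cells and B cells overlapped. H2-Oa was at 92.7, 75.04, 104 and 121 CPM in B cells, against 4.15, 0.994, 0.826 and 0.994 CPM in macrophages. H2-Ob was at 311, 256, 271 and 261 CPM in B cells, against 13.6, 7.08, 3.86 and 5.43 CPM in macrophages. The levels in macrophages were not above those in T cells, at 13.9, 0, 2.76 and 2.27 CPM for H2-Oa, except in library 2, and at 13.9, 3.46, 13.8 and 11.4 CPM for H2-Ob, again except in library 2.

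Relative to B cells, macrophages held 0.793 to 4.47% of the H2-Oa level, 1.43 to 4.37% of the H2-Ob level and 0.491 to 2.62% of the H2-DMb2 level. For 7 B cell markers other than Cd79a the same percentage ran from 0.293 to 5.02% in library 1 and from 0.0205 to 0.436% in libraries 2 to 4. In library 1 the H2-O and H2-DMb2 percentages lay within the range of those markers, and in libraries 2 to 4 they lay above it. The part of free B cell RNA in these values was not tested. As a share of all H2-DM and H2-O UMIs, H2-O made up 28.2 to 32.1% in B cells, against 1.32 to 4.21% in macrophages.

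**Figure D1:**
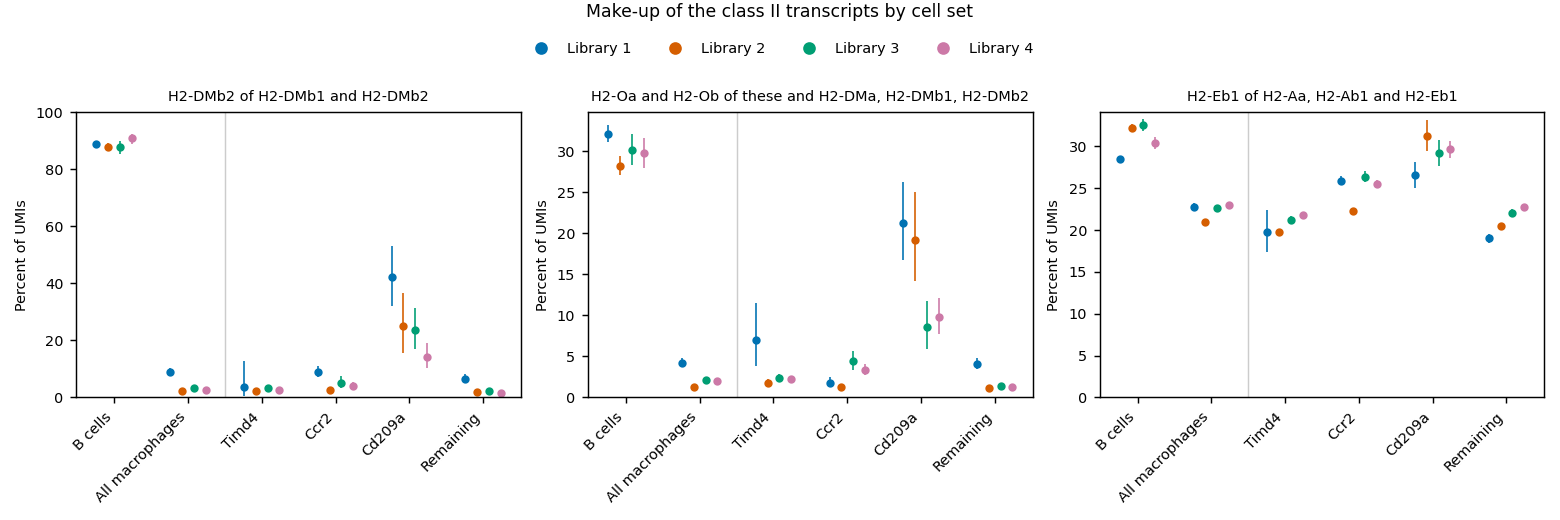
Make-up of the class II transcripts. Each point is 1 library and cell set, with its exact 95% interval for counting error; the y axes give H2-DMb2 as a percent of both DMβ genes, H2-O as a percent of H2-O and H2-DM, and H2-Eb1 as a percent of the 3 α and β chain genes. B cells sit at 87.7 to 90.8% H2-DMb2, macrophages at 2.18 to 8.91%, and the Cd209a cells between them at 14.1 to 42.4%.

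Ciita, the co-activator, was at 117, 106, 103 and 84.3 CPM in B cells, against 24.1, 41.8, 4.69 and 10.8 CPM in macrophages. Its order over the macrophages of the 4 libraries (library 2 highest, then 1, 4 and 3) was also the order of Cd74, H2-Aa and the summed members. In T cells Ciita had a single UMI in library 1 and none in the other 3 libraries.

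Over all genes, a rule of size was used in place of a test: a gene was called where each of the 4 libraries gave 20 CPM or more in the higher set and a log2 ratio of 1 or more, in 1 direction. For B cells over macrophages this called 9.54% of 5368 genes as higher and 16% as lower, 25.5% in all. Of the 10 members, 4 were called higher (H2-DMb2, H2-Oa, H2-Ob and Ciita, with median log2 ratios of 6.99, 6.58, 5.38 and 2.62) and 0 lower. H2-DMb2, H2-Oa and H2-Ob were under 20 CPM in the macrophages of every library, and Ciita in those of libraries 3 and 4. There the filter fixed their direction. Cd74, H2-Aa and H2-Eb1 were higher in B cells in all 4 libraries without reaching the limit in library 2, and H2-DMb1 was lower in B cells in all 4, although in library 3 the interval of its log2 ratio (-0.56 to 0.03) included 0. Of all 5368 genes tested, 2091 were higher and 2131 lower in B cells in all 4 libraries. Without library 2, Cd74, H2-Aa and H2-Eb1 reached the limit too. Leaving a library out can only add calls, over all genes as well. The count over all genes is not given here, so this is not a result about the members. The median log2 ratio over the 10 members was 1.46, 0.83, 3.11 and 1.93, against -0.02, -0.07, 0.01 and 0.05 over all genes tested.

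Within the macrophages, cells were set apart by 3 surface receptors. Timd4, a phosphatidylserine receptor of long-lived resident macrophages, was taken at 3 or more UMIs (122, 541, 2069 and 2655 cells), Ccr2, the chemokine receptor of monocyte-derived cells, at 3 or more (169, 801, 144 and 285 cells), and Cd209a, a lectin of dendritic cells and some macrophages, at 2 or more (25, 8, 60 and 74 cells). The remaining macrophages, under all 3 limits, numbered 1243, 2912, 2126 and 2079, and each set is compared with them, so the 3 comparisons share that group. A cell could belong to more than 1 set. Of the Cd209a cells, 50 to 71.7% were also Timd4 cells, and 16, 50, 11.7 and 16.2% were also Ccr2 cells.

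In Timd4 cells the summed class II level was the lowest of the macrophage sets in every library. H2-DMb2, H2-Oa and H2-Ob, at 10.6 CPM or less in Timd4 cells, did not follow this order in every library. Their median log2 ratios over the remaining macrophages were 0.07, 1.29 and 0.28. The sign for H2-DMb2 and H2-Oa changed under some alternative settings. The summed members were at 1917, 8938, 1965 and 3778 CPM in Timd4 cells, against 4826, 13981, 3253 and 7084 CPM in the remaining macrophages. The log2 ratios were -1.33, -0.65, -0.73 and -0.91, and the counting intervals of neighbouring sets did not overlap. Cd74 was at 825, 3958, 905 and 1774 CPM in Timd4 cells, against 2407, 6642, 1642 and 3505 CPM in the remaining macrophages.

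Ciita was at 2.65, 23.2, 3.12 and 5.71 CPM in Timd4 cells, against 14.0, 40.6, 3.42 and 11.1 CPM in the remaining macrophages, and in library 3 the interval of its log2 ratio (-0.55 to 0.28) included 0. The rule of size called 0.0215% of 4658 genes lower and 0.0644% higher (0.0859% in all), and 0 of the 6 members tested in either direction, although those 6 (Cd74, H2-Aa, H2-Ab1, H2-Eb1, H2-DMa and H2-DMb1) were lower in all 4 libraries. In 420 of all 4658 genes the ratio was lower in all 4. The median log2 ratio over the 6 members was -1.13, -0.57, -0.66 and -0.88, against -0.03, 0.07, 0.05 and 0.04 over all genes tested.

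Ccr2 cells had high class II in each library, and their libraries lay closer together than those of the other macrophages. The summed members were at 26912, 19153, 15898 and 21457 CPM in Ccr2 cells, against 4826, 13981, 3253 and 7084 CPM in the remaining macrophages. The log2 ratios were 2.48, 0.45, 2.29 and 1.60, and the smallest was that of library 2, where the remaining macrophages were highest. H2-Eb1 had 3709, 2070, 2025 and 2722 CPM in Ccr2 cells, against 398, 1371, 303 and 731 CPM in the remaining macrophages, the steepest ratios of the 4 most abundant members in each library.

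H2-DMb1 was at 394, 246, 194 and 248 CPM in Ccr2 cells, against 85.1, 199, 68.2 and 99.9 CPM in the remaining macrophages, so the Ccr2 cells kept the macrophage type of DMβ chain, with H2-DMb2 at 2.66 to 8.90% of both. Ciita was at 79.1, 59.9, 44.4 and 59.5 CPM in Ccr2 cells, against 14.0, 40.6, 3.42 and 11.1 CPM in the remaining macrophages. The rule of size called 0.103% of 4842 genes higher and 0.062% lower (0.165% in all), and 0 of the 7 members tested, all 7 being under the limit in library 2. All 7 were higher in all 4 libraries, as were 1178 of all genes tested. Ciita had 20 CPM in the remaining macrophages only in library 2, so in the other libraries the filter fixed its direction. Without library 2, 6 members were called higher (Cd74, H2-Aa, H2-Ab1, H2-Eb1, H2-DMb1 and Ciita), among 39 of all genes called higher. The count of genes called lower is in the last section. The median log2 ratio over the 7 members was 2.50, 0.45, 2.36 and 1.65, against -0.04, 0.02, 0.18 and 0.14 over all genes tested.

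**Figure D2:**
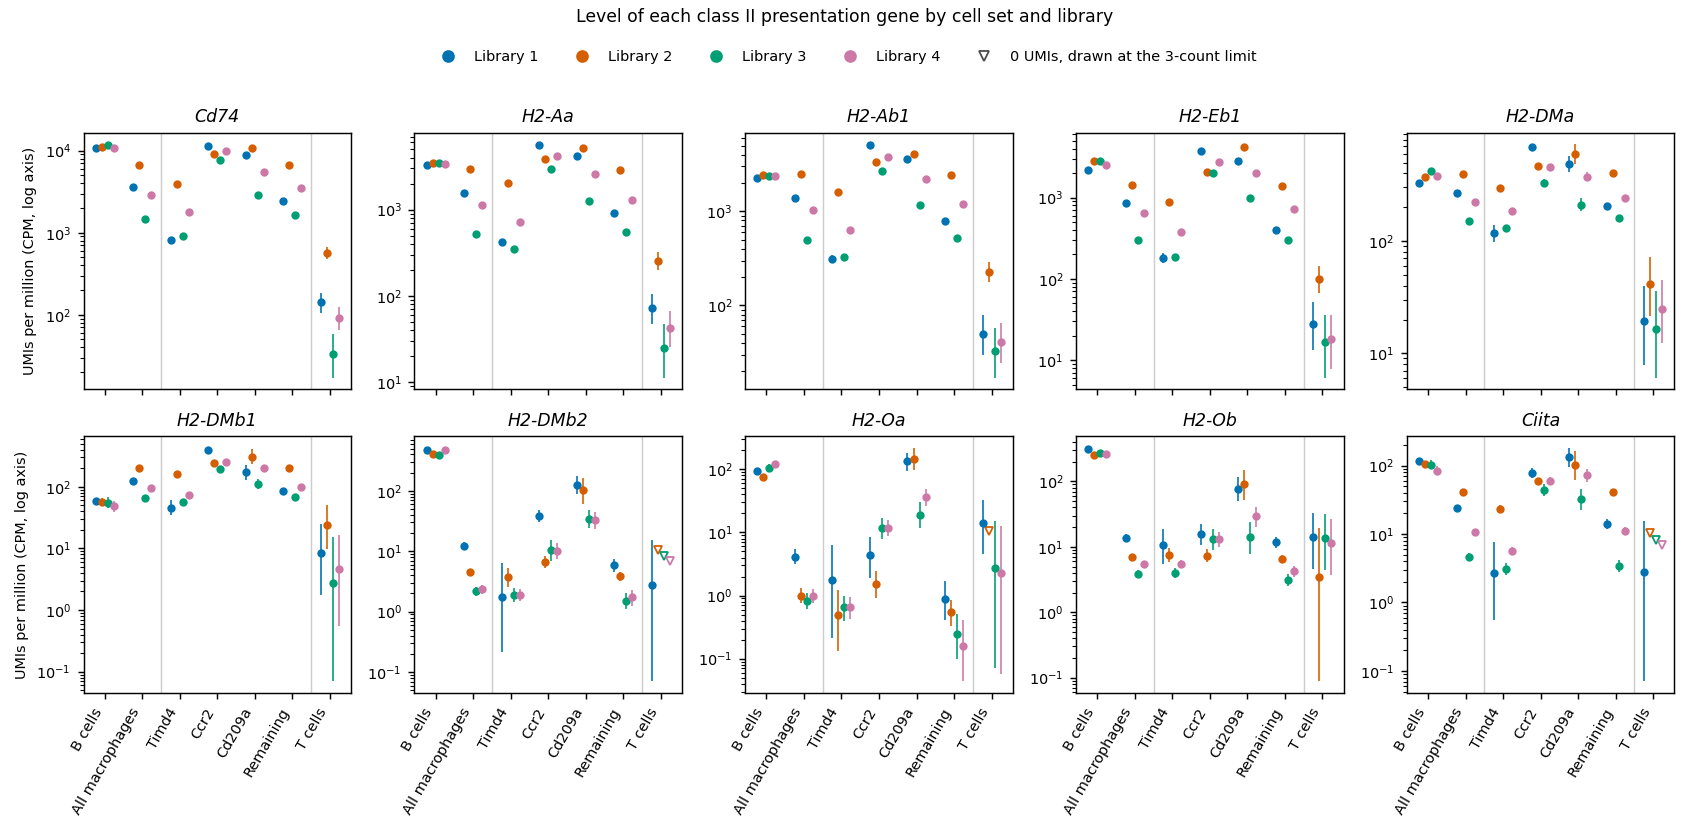
Level of each member in CPM (log axis) by cell set, 1 point per library with its exact 95% interval for counting error; open triangles stand for 0 UMIs and are drawn at the level of 3 UMIs. The B cell points lie close together for every member, while the macrophage points spread. H2-DMb2, H2-Oa and H2-Ob are higher in B cells and in Cd209a cells than in the other sets. For H2-DMb2 and H2-Ob the Cd209a cells lie under the B cells in each library. In library 3 the Cd209a interval overlaps that of T cells for H2-Ob and that of Ccr2 cells for H2-Oa.

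Cd209a cells were few, and their class II was high in sum and uneven from cell to cell. The summed members were at 20578, 25538, 6696 and 13061 CPM in Cd209a cells, against 4826, 13981, 3253 and 7084 CPM in the remaining macrophages. With each cell thinned to 3000 UMIs, the median cell held 2, 58.5, 4.5 and 9 class II UMIs in Cd209a cells, against 10, 43, 4 and 13 in the remaining macrophages. The median was thus lower in Cd209a cells in libraries 1 and 4, although the sum was higher in all 4 libraries. The rule called 0.463% of 4747 genes higher and 0.0632% lower (0.527% in all), and as higher 3 of the 8 members tested (H2-Eb1, H2-DMb2 and Ciita). All 8 were higher in all 4 libraries, as were 737 of all 4747 genes tested. H2-DMb2 was under 20 CPM in the remaining macrophages of every library, and Ciita in those of libraries 1, 3 and 4. There the filter fixed their direction, so their being higher is no result of the rule. Without library 3, H2-Oa and H2-Ob were called too, 5 members in all, and both passed the filter only through the Cd209a cells. The count of all genes called higher then rose too, and is given in the last section. The median log2 ratio over the 8 members was 2.19, 0.79, 1.17 and 0.99, against -0.06, 0.05, 0.08 and 0.06 over all genes tested. H2-DMb2 was at 127, 103, 34.4 and 32.8 CPM in Cd209a cells, against 5.87, 3.83, 1.52 and 1.72 CPM in the remaining macrophages. H2-Oa, which did not have 20 CPM in library 3, was at 133, 148, 19.2 and 36.3 CPM in Cd209a cells, against 0.880, 0.543, 0.247 and 0.160 CPM in the remaining macrophages. Ciita was at 133, 103, 32.4 and 72.6 CPM in Cd209a cells, the level of B cells in libraries 1, 2 and 4 within the counting intervals.

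The Cd209a cells differed by whether they also passed the Timd4 limit. The 10, 4, 17 and 27 of them under the Timd4 limit had 40779, 46832, 13730 and 26487 CPM of class II, against 721, 4572, 3835 and 6607 CPM in the 15, 4, 43 and 47 cells over it. Flt3, a growth factor receptor of dendritic cells, was at 144, 91.96, 17.5 and 38.2 CPM without Timd4, against 0, 22.6, 8.53 and 10.49 CPM with it, from 0 to 22 UMIs per value. Gata6, the transcription factor of large peritoneal macrophages, was at 52.4, 0, 94.4 and 128 CPM without Timd4, against 167, 238, 141 and 139 CPM with it. Ccr2 was at 491, 299, 73.4 and 390 CPM without Timd4, against 0, 170, 32.7 and 30.2 CPM with it. The part of Ccr2 cells in these class II values was not tested.

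Without Cd209a itself, which defines the set, the 8 other dendritic cell markers summed to 224, 222, 54.6 and 87.7 CPM in Cd209a cells, against 5.87, 1.19, 1.66 and 1.85 CPM in the remaining macrophages. Of the 8, Xcr1 was at 0 in Cd209a cells of libraries 1 to 3 and Ccr7 in those of libraries 1, 2 and 4. The 7 B cell markers other than Cd79a summed to 2.66 to 55.2 CPM in Cd209a cells, with Pax5 at 0 in all 4 libraries, against 4992 to 6176 CPM in B cells. In library 3 the 5 neutrophil markers reached 1737 CPM in Cd209a cells, against 113 CPM in the remaining macrophages. The part of dendritic cells or neutrophils in the class II values was not tested. Without the cells over the Timd4 limit, a split made after the values were seen, 9 members were called higher, all but H2-DMa. Of these, H2-DMb2, H2-Oa and H2-Ob passed the filter only through the Cd209a cells. The count of all genes called higher rose as well, as given in the last section.

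The limits themselves show how class II ran with each receptor. At exactly 3 Timd4 UMIs the summed members were at 2372, 8583, 2283 and 3977 CPM, against 6062, 10444, 2321 and 4384 CPM at 2 UMIs, just outside. At 3 Ccr2 UMIs they were at 10100, 17267, 12616 and 19591 CPM, against 11220, 18016, 13465 and 15936 CPM at 2, so neither side of the limit was higher in all 4 libraries. Cells with 4 or more Ccr2 UMIs had 29743, 19572, 16539 and 21942 CPM, against 4493, 12275, 2317 and 4668 CPM in those with 0. Cells with 2 Cd209a UMIs, just inside, had 10781, 3699, 2943 and 4003 CPM, against 9626, 15246, 2035 and 3931 CPM at 1 UMI, while those with 3 or more had 27948, 37864, 10376 and 23382 CPM.

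Class II fell as Adgre1 rose in all 4 libraries. Barcodes with 21 or more Adgre1 UMIs had 2422, 6190, 1904 and 3579 CPM, against 12686, 20368, 9769 and 15122 CPM in those with 2 UMIs. Barcodes with 1 Adgre1 UMI, just outside the macrophage gate, had 21571, 22777, 24816 and 21122 CPM. Depth moved with this: the median was 13749 to 18610 UMIs at 21 or more Adgre1 UMIs, against 5846 to 9094 UMIs at 2, and the part of depth was not tested. With every cell thinned to 3000 UMIs before the sets were made, the median log2 ratio of the summed members was -0.88 for Timd4 cells and 2.24 for Ccr2 cells over the remaining macrophages, against -0.82 and 1.94 without thinning. The thinned sets were much smaller, at 43, 108, 306 and 480 Timd4 cells and 43, 63, 10 and 30 Ccr2 cells, so these ratios cover different cells.

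**Figure D3:**
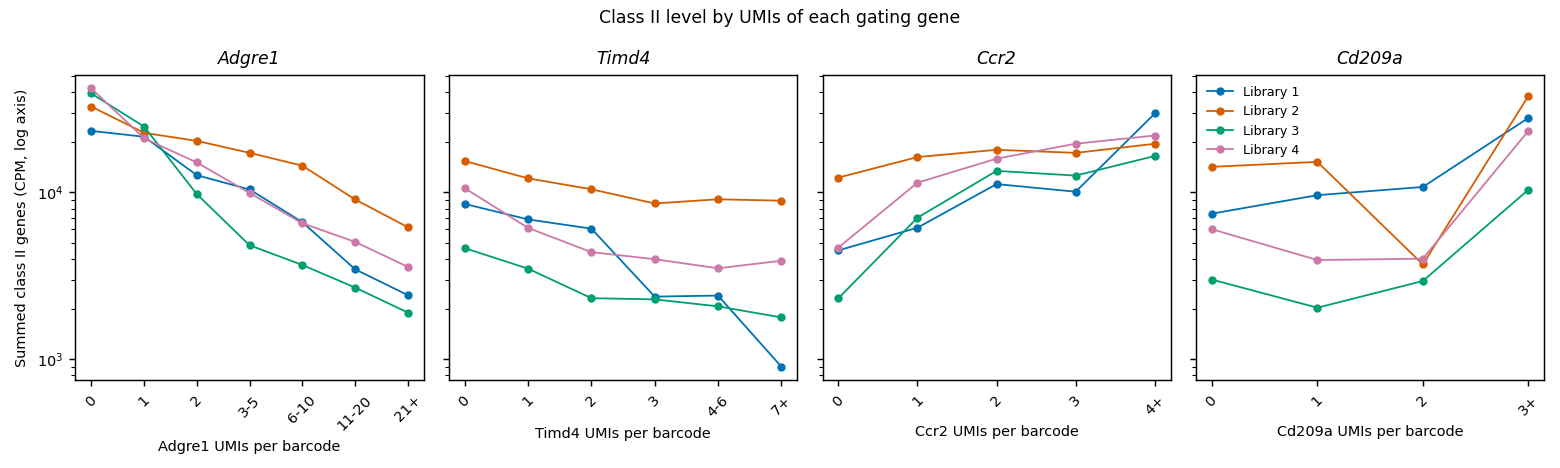
Summed level of the 10 genes (CPM, log axis) in barcodes grouped by their UMIs of Adgre1, Timd4, Ccr2 or Cd209a, 1 line per library. The Adgre1 panel takes kept barcodes without Cd79a or Cd3e, and the others take the macrophages. Class II falls from left to right with Adgre1 and from 0 to 3 Timd4 UMIs, and is higher with 2 or more Ccr2 UMIs than with 0 in each library.

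Single cells differed far more among macrophages than among B cells. To compare cells at equal depth each was thinned to 3000 UMIs, which left out 11 to 47 B cells and 24 to 85 macrophages per library. The median B cell held 59, 61, 63 and 62 class II UMIs, against 10, 42, 3 and 10 in the median macrophage. The 90th percentile of B cells was 1.76, 2.07, 2.15 and 2.18 times their 10th, against 43, 17.4 and 22 times in the macrophages of libraries 1, 2 and 4. In library 3 the 10th percentile of macrophages was 0.

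Some macrophages reached the level of B cells. The 10th percentile of B cells or more was held by 9.57% of macrophages in library 1 (interval 8.10 to 11.2%), 50.5% in library 2 (49.0 to 52.1%), 4.29% in library 3 (3.71 to 4.94%) and 11.6% in library 4 (10.7 to 12.5%). In Ccr2 cells the shares were 51.5, 66.3, 46.5 and 73.0%, in Timd4 cells 0.826, 22.2, 0.774 and 2.30%, in Cd209a cells 28, 50, 16.7 and 21.6% (of 25, 8, 60 and 74 cells), and in the remaining macrophages 4.31, 51.5, 5.09 and 15.3%. Library 2 thus differed in the bulk of its cells, down to its Timd4 cells, whose median was 21 UMIs, against 2 to 7 in those of the other libraries.

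**Figure D4:**
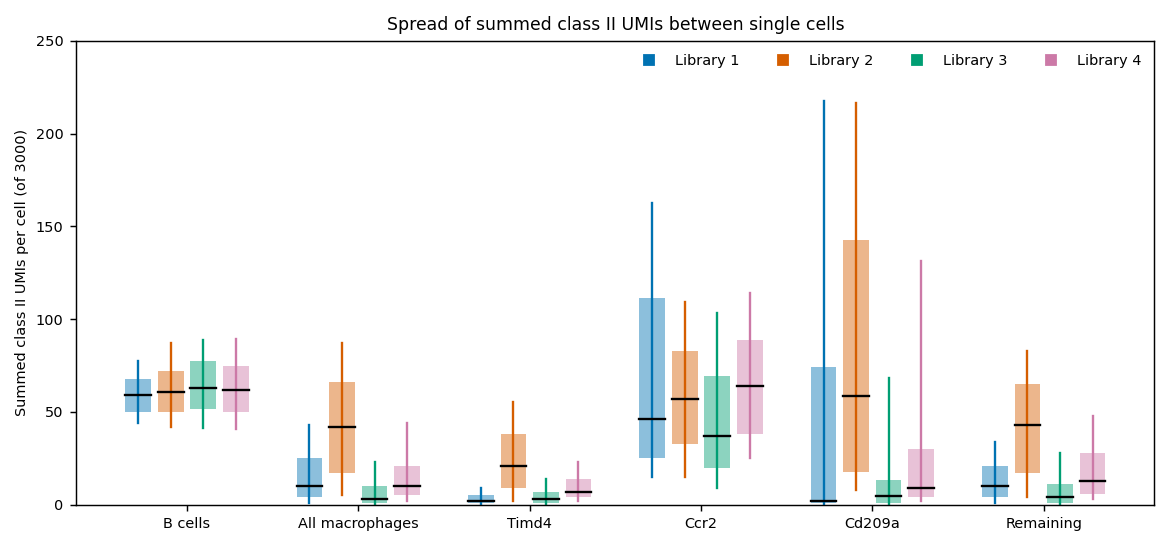
Summed class II UMIs per cell after thinning each cell to 3000 UMIs, by cell set and library. Boxes span the 25th to the 75th percentile, black bars mark the median and lines run from the 10th to the 90th percentile. B cells form narrow boxes around medians of 59 to 63 in all 4 libraries, and the macrophage boxes lie between medians of 3 and 42.

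The share of cells with at least 1 UMI followed the levels. Cd74 was seen in 100% of B cells in each library, against 84.7, 95.3, 62.8 and 90.6% of macrophages and 30.4, 52.9, 7.04 and 26.6% of T cells, which give the background. Ciita was seen in 31.8, 25.1, 23.1 and 22.2% of B cells, against 5.23, 10.7, 1.18 and 3.23% of macrophages and 1.79, 0, 0 and 0% of T cells. Without thinning, Ciita was seen in 63.3, 46.0, 39.2 and 41.6% of B cells, against 11.4, 32.5, 4.36 and 9.77% of macrophages, and Cd74 in 99.8% or more of B cells, against 82.8 to 98.6% of macrophages. H2-DMb2 was seen in 63.6 to 73.0% of B cells, against 0.557 to 2.55% of macrophages (83.0 to 95.9% and 2.38 to 5.72% without thinning). The H2-Ob shares in macrophages, 1.02 to 3.65%, were under those in T cells in libraries 1, 3 and 4 (2.82 to 8.93%, on 2 to 5 T cells with a UMI). Without thinning the H2-Ob shares were 9.10, 7.89, 5.05 and 6.28% of macrophages, against 8.20, 1.92, 6.33 and 4.05% of T cells, so neither was higher throughout, and no expression in macrophages is read from them.

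Macrophages in which Ciita was caught held more of the other members. After thinning, the median of the other 9 genes was 40, 58, 12 and 39 UMIs in the 76, 444, 51 and 161 macrophages with a Ciita UMI, against 10, 40, 3 and 10 UMIs in those without. The direction was the same in all 4 libraries. A cell without a Ciita UMI may still express it, since the gene averaged 4.69 to 41.8 CPM in macrophages, well under 1 UMI in 3000.

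Across cells the 4 most abundant members varied together, more so in macrophages. The median Pearson correlation of log2(count + 1) among Cd74, H2-Aa, H2-Ab1 and H2-Eb1 was 0.31, 0.47, 0.48 and 0.49 over 257 to 575 thinned B cells, against 0.76, 0.81, 0.70 and 0.71 over 1453, 4163, 4310 and 4988 macrophages. H2-DMa and H2-DMb1 correlated with these 4 at medians of 0.41, 0.36, 0.23 and 0.28 in macrophages, and Ciita at 0.29, 0.16, 0.13 and 0.20. H2-DMb2, H2-Oa and H2-Ob, the 3 members with the fewest UMIs in the macrophages of every library, gave medians of 0.04 to 0.12. These are descriptions over cells of shared libraries at equal depth. Counts of low genes limit the size that r can reach, and the narrower spread of B cells does so too.

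**Figure D5:**
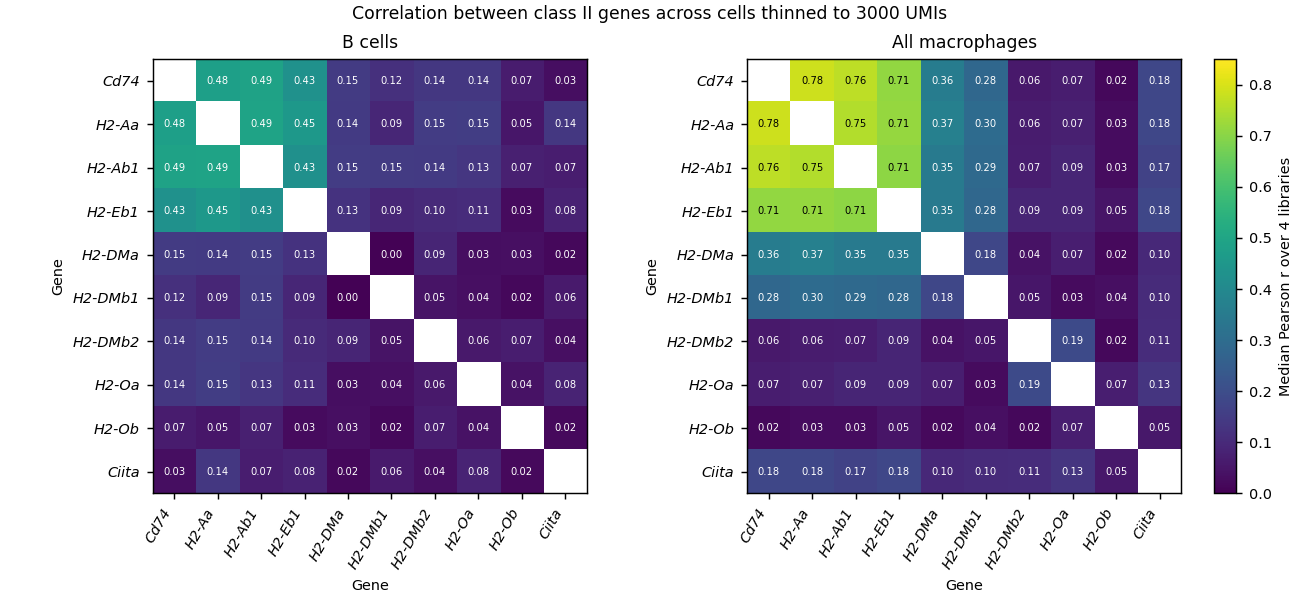
Pearson correlation of log2(count + 1) between each pair of the 10 genes over thinned cells, as the median over the 4 libraries, in B cells and in macrophages. The block of Cd74, H2-Aa, H2-Ab1 and H2-Eb1 stands out in both, and is stronger in macrophages, where H2-DMa and H2-DMb1 follow it.

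Among 4965 other genes seen in at least 5% of the macrophages of every library, those with the highest median correlation with the summed members were Chil3 (0.42), Cd52 (0.26), Coro1a (0.25), Ifitm3 (0.24), Tmem176a (0.22), Ms4a6c (0.22), Tmem176b (0.21), Retnla (0.20), F13a1 (0.20) and Tmsb10 (0.19). Chil3 and Retnla, secreted proteins of alternatively activated macrophages, did not do so evenly: Chil3 ran from 0.18 in library 1 to 0.47 in library 2, and Retnla had 0.40 in library 1 and -0.10 in library 2. At the other end stood Pf4 (-0.39), Ltbp1 (-0.32), Prg4 (-0.31), Cxcl13 (-0.30) and Fabp4 (-0.26), where Prg4 and Cxcl13 are genes of large resident peritoneal macrophages.

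Other genes of the pathway gave no call among the macrophage sets, where the rule called 0.0859% (Timd4), 0.165% (Ccr2) and 0.527% (Cd209a) of all genes tested, so a count of 0 is near the background and says little about a list. Of the RFX, NF-Y, CREB and co-activator genes that form the complex Ciita binds to, 6 of 10 were tested in each comparison and 0 were called in Timd4, Ccr2 or Cd209a cells over the remaining macrophages. The same held for the interferon-γ path that induces Ciita (8 of 9 tested), for genes of class II loading and turnover (6 of 7 in the matrix), for costimulation (2 of 6) and for class I presentation (9 of 10). Of the 8 interferon-γ path genes tested, Ifngr1, Jak1 and Jak2 were higher in Ccr2 cells in all 4 libraries, as were 1178 of all 4842 genes. Ifngr1, a chain of the interferon-γ receptor, was at 351, 242, 198 and 215 CPM in Ccr2 cells, against 283, 212, 111 and 132 CPM in the remaining macrophages. Rfxap, a subunit of the RFX complex, was at 22.8, 21.9, 27.6 and 20.2 CPM in Ccr2 cells, against 21.5, 21.4, 24.4 and 22.2 CPM in the remaining macrophages. Over thinned macrophages the median correlation of the complex's 7 measured genes with the summed members was -0.00024, against -0.00070 over all 4965 genes.

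B cells and macrophages differed in genes that process class II. Of the 7 loading and turnover genes tested, 4 were lower in B cells, all endosomal proteases, and 2 were higher, beside 16% of all genes called lower and 9.54% called higher. Ctss, the cathepsin that cuts the invariant chain, was at 333, 335, 340 and 355 CPM in B cells, against 1434, 1304, 1193 and 1164 CPM in macrophages. Ctsl was at 9.37 to 14.9 CPM in B cells, against 250 to 336 CPM in macrophages, and Ctsb and Lgmn were lower too. Cd83, which protects surface class II from removal, was at 41.0, 32.7, 46.3 and 37.1 CPM in B cells, against 3.24, 0.831, 0.635 and 1.38 CPM in macrophages. Marchf1, the ligase that removes class II from the surface and is opposed by CD83, was at 129 to 196 CPM in B cells, against 38.6 to 80.6 CPM in macrophages.

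H2-Eb2, a further β gene beside H2-Eb1, was at 32.8, 22.5, 31.4 and 26.9 CPM in B cells, against 0.679, 0.163, 0.0953 and 0.0297 CPM in macrophages. The rule called 1 of 8 genes tested in the interferon-γ path (Jak2, higher in B cells), 1 of 9 in class I presentation (H2-D1, lower), 1 of 3 in costimulation (Cd274, higher) and 1 of 7 in the complex bound by Ciita (Kat2b, lower). With 25.5% of all genes called in this comparison, these counts are not a result about the lists. Cd274, which encodes PD-L1, was at 33.1 to 60.5 CPM in B cells, against 3.81 to 9.28 CPM in macrophages.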

How the data were processed

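Per the file headers, Cell Ranger 5.0.1 made the single matrix of whole-number UMI counts that the authors deposited for all 4 samples. CASAVA 1.8, Seurat and the build mm10 are named in the submitters' processing notes; annotation, cell calling and intron counting are stated nowhere in the sources read. The members and lists were chosen with earlier results of these data known. Counts were summed per library and cell set (Python 3.11.15, numpy 2.4.6, scipy 1.17.1, pandas 2.3.3) and divided by the set's total UMIs to give CPM. Library totals were 40321459 to 78083803 UMIs. Ratios added a prior count of 0.5. Intervals (95%) are exact: Poisson for levels, Clopper-Pearson for shares, conditional binomial for ratios. Named genes are the 10 members, the 10 highest and 5 lowest genes by correlation, and called genes of pathway lists. Ifngr1, Jak1 and Rfxap are named too, though not called. In their lists, Ifngr1 and Rfxap had the highest median correlation with the summed members. Marker sums leave out the genes that define the sets, a choice made after seeing the data. Thinning drew 3000 UMIs per barcode without replacement. No doublet caller was run; the gates drop macrophages with Cd79a or Cd3e UMIs. Ratios and the rule of size were tested on simulated counts, which held counting error only and no variation between cells. For the Cd209a set no minimum of recovered genes was required.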

Additional observations from a re-analysis of the deposited data

Results flagged for a closer look

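The 4 libraries are separate samples whose groups are not known here, and the difference between them was not tested. H2-Ab1 in B cells over macrophages had a log2 ratio of -0.03 in library 2, and of 0.73, 2.25 and 1.20 in libraries 1, 3 and 4. H2-DMa gave -0.09 in library 2, and 0.30, 1.47 and 0.77 in libraries 1, 3 and 4. For both genes the counting intervals excluded 0 on opposite sides. The levels in B cells varied little over the libraries, and the class II level of the macrophages was highest in library 2.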

How the results depend on the processing

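No paired analysis was possible because every sample is labelled replicate 1 and no label ties a library to a sample. The median log2 ratio of the summed members kept its sign under every alternative run, at -1.17 to -0.73 (Timd4), 1.60 to 2.30 (Ccr2), 0.67 to 1.99 (Cd209a) and 1.32 to 2.01 (B cells). Counts of called genes moved more; their cause was not tested. As reported, all genes higher and lower numbered 3 and 1 (Timd4), 5 and 3 (Ccr2), 22 and 3 (Cd209a) and 512 and 859 (B cells). With 1 or more Adgre1 UMIs, Ccr2 cells had 8 higher, and Cd209a cells 59 higher with 7 members. With 4 or more, Ccr2 cells had 0 lower, and Cd209a cells 14 higher with 1 member. At most 5% mitochondrial UMIs gave 40 higher in Cd209a cells. Leaving out the deepest 5% of barcodes, or cells over 2 limits, gave 5 lower in Ccr2 cells. Against all macrophages under the limit, 4 were lower in Timd4 and 12 in Ccr2 cells. Thinning before the sets gave 1 higher in Timd4 cells, and in Ccr2 cells 15 higher with 1 member and 18 lower; for Cd209a it was not run, as library 2 had no cell left. At 5 CPM, Timd4 cells had 7 higher and 2 lower, Ccr2 cells 14 and 7, Cd209a cells 89 higher with 5 members, and B cells 856 and 1306. At a log2 ratio of 0.5, Timd4 cells had 15 higher and 10 lower with 4 members, Ccr2 cells 17 with 2 members and 17, Cd209a cells 74 with 7 members and 7, and B cells 1017 and 1294. Cd209a cells without Timd4 cells, chosen after seeing the data, had 77 higher with 9 members. Leaving out each library in turn gave 3 to 6 higher and 1 to 2 lower in Timd4 cells, 5 to 39 and 3 to 21 in Ccr2 cells with 0 to 6 members higher, 27 to 49 higher in Cd209a cells with 3 to 5 members, and 4 to 7 members higher in B cells. The highest values came without library 2 for Ccr2 and B cells, and without library 3 for Cd209a cells. For Timd4 cells they came without library 4 (higher) or library 1 (lower). For B cells the count over all genes with a library left out is not given here, so the count of members does not stand alone.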
